A study of Mus musculus with 4 samples.

Results

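The EGF family genes described here are 10 mouse genes of the ErbB signalling system: the ligand genes Areg, Hbegf, Ereg, Egf and Tgfa, the receptor genes Egfr, Erbb2 and Erbb3, and the receptor inhibitor genes Errfi1 and Lrig1. They were chosen by symbol, and each symbol matched 1 of the 31053 gene features. Their levels were read in sorted TOM+ cells of mouse duodenal crypts, over 12 cell types named by the authors and between 2 genotypes with 2 libraries each. TOM is a red fluorescent protein, made in cells where Cre has been active and in their descendants. The mice labelled WT were Atoh1CreER-T2;R26RTom, and those labelled APC-KO carried Apcfl/fl as well (Atoh1Cre;Apcfl/fl;R26RTom in the sample labels, Atoh1CreER-T2 in the series' design text). All mice, WT included, were given tamoxifen in 2 doses of 1 mg/mL, 24 h apart, and crypts were taken 12 h after the last dose. Atoh1 is the transcription factor that commits crypt cells to secretory fates, so the reporter and the deletion were both set by where that driver had been active. The labels give no age, animal, sex or batch for a library, and p-values below measure only the spread between libraries, which may be technical.

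Ligands of this family are made as membrane-bound precursors and are released by proteases of the ADAM group. They bind EGFR, which pairs with itself or with ERBB2, a partner that has no ligand of its own, or ERBB3, which binds neuregulins and has little kinase activity. ERRFI1 is made in response to receptor signalling and blocks the EGFR kinase, and LRIG1, a membrane protein used as a marker of crypt stem cells, lowers ErbB protein at the surface. In the intestinal crypt, EGF signalling is known for driving stem cell division, and Paneth cells are a known source of EGF.

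The libraries held 4814 and 3821 kept cells in WT replicates 1 and 2, and 356 and 6243 in APC-KO replicates 1 and 2. The kept cells carried 24677647, 21003179, 3009636 and 27285079 UMIs (unique molecular identifiers, each counting 1 captured RNA molecule). APC-KO replicate 1 stood apart: its kept cells held 5.15% of its UMIs, against 37.6% to 50.3% in the other 3 libraries, and GOBLET-PRE cells gave 59.2% of them, against 27.0% and 33.2% in WT and 16.6% in APC-KO replicate 2. Its GP, SEC-PRO and TUFT types held 7, 5 and 8 cells, so genotypes were not tested in those 3 types. Over all pairs of libraries, 20 barcodes were kept in more than 1 library. Apc, the targeted gene, stood at 87.2, 77.9, 88.1 and 88.1 CPM (UMIs of the gene per 1000000 UMIs of the sum) in the same order. The labels do not give the deleted part of Apc, and tags at the 3′ end outside it check nothing. Of 9 marker lists for the named types, 7 were highest in a type of that name in every library. In every library the EC type had the highest summed level of Tph1, Chga, Chgb, Tac1 and Ddc (61311 to 82128 CPM), markers of serotonin-making enteroendocrine cells, and the mucus-cell list was highest in GOBLET. The other two lists went against their names: EEC-PRE markers were higher in NON-EC than in EEC-PRE in all 4 libraries, and SEC-PRO markers were higher in GP than in SEC-PRO in 3 of 4. Summed levels of 6 immune, 6 stromal and 3 endothelial markers over all kept cells were at most 7.51, 2.33 and 2.66 CPM. In APC-KO replicate 2 the immune list stood at 29.6 CPM in EC, 25.4 in NON-EC and 35.9 in TUFT. In WT it stood at 2.40 and 11.8 CPM in EC, 0.948 and 1.45 in NON-EC, and 5.69 and 7.07 in TUFT. APC-KO replicate 1 had 0, 0 and 18.9 CPM in these types. The part of immune RNA in the results below was not tested. The endothelial list reached 32.7, 25.6, 25.6 and 11.4 CPM in EC, where Cdh5 was at 0 in every library and Kdr in all but WT replicate 1. The 2 erythroid markers stood at 34.0 and 11.0 CPM in WT against 0.997 and 0.367 CPM in APC-KO, with 205 CPM in GP of WT replicate 1 and 32.5 CPM in GOBLET-PRE of WT replicate 2, and their part in the results below was not tested. Levels below are CPM of UMIs summed over the cells of a type in a library. They are compared for 1 gene at a time, and since the types were named from expression in the same cells, levels over types are a description with no test.

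Areg encodes amphiregulin, a ligand of EGFR. Areg was highest in GOBLET-PRE in every library. There it stood at 200 CPM in WT replicate 1, 430 CPM in WT replicate 2, 202 CPM in APC-KO replicate 1 and 133 CPM in APC-KO replicate 2. GOBLET-PRE cells gave 64.2% and 75.3% of all Areg UMIs in WT and 85.1% and 51.4% in APC-KO. The next types in WT, GP (120 ± 41.9 CPM, SD, n = 2), ENTERO-PRO (82.4 ± 30.9), EC (70.2 ± 33.8) and PANETH-PRE (63.3 ± 36.7), overlapped their neighbours in that order. ISC (13.6 ± 3.90) and EEC-PRE (8.32 ± 6.05) were lowest. WT replicate 2 was above WT replicate 1 in 11 of the 12 types, with TUFT as the exception, and in barcodes with 1 to 50 UMIs (97.9 against 58.7 CPM), which hold free RNA rather than cells.

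Areg was not limited to a few cells of GOBLET-PRE. After each cell had been thinned to 2000 UMIs, 17.4% of GOBLET-PRE cells in WT replicate 1 (95% exact binomial interval 15.4 to 19.6) and 30.9% in WT replicate 2 (28.4 to 33.6) had an Areg UMI. In APC-KO the shares were 24.2% (18.1 to 31.1) and 16.0% (13.9 to 18.4). The shares before thinning were 25.3%, 40.9%, 42.9% and 23.9%. In EEC-PRE, which had the lowest level, the thinned shares were 1.06%, 2.31%, 0% of 15 cells (interval up to 21.8) and 0.585%. Median depths were 5311, 5747, 10214 and 3996 UMIs per cell in GOBLET-PRE and 3662, 4259, 8261 and 2548 in EEC-PRE. Such intervals cover counting error only.

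The 250 bases before a start of Areg and of Errfi1 are shown because these genes, 2 members with high levels in GOBLET-PRE, both have a full cAMP response element and a TATA box there. Areg lies at chr5:91139599-91148432 on the plus strand of GRCm38 and Errfi1 at chr4:150853919-150868892 on the plus strand. The sequences are RefSeq's for GRCm38.p6, written 5′ to 3′, and end at the base before the annotated start, at chr5:91139349-91139598 and chr4:150854820-150855069, both on the plus strand. For Errfi1 this is the downstream of 2 RefSeq starts and lies inside the gene span above, which GENCODE begins at an upstream start. Capitals mark TGACGTCA (cAMP response element) and TATAAA, the core of a TATA box.
Areg: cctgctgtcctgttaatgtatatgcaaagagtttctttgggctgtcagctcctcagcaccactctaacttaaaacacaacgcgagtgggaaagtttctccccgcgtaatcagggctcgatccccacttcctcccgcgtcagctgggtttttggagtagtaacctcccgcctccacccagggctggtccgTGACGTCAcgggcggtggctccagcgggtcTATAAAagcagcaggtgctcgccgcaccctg
Errfi1: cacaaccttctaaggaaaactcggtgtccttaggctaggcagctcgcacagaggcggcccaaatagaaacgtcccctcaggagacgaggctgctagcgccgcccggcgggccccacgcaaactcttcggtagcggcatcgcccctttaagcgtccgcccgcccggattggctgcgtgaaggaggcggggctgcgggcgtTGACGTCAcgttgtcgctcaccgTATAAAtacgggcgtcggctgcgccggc
The response element began 61 bases before the Areg start and 51 before the Errfi1 start, and the TATA box began 31 and 28 bases before. Searched on both strands, TGACGTCA occurred in 1.55% of 32851 promoters of this length, TATAAA in 12.4%, and both in 0.119%. The table matched 7 of the 10 genes with 9 starts, and of these 7 only Areg and Errfi1 held either motif. Hbegf, Erbb3 and Ereg were not among the genes matched, so their promoters were not searched. TGANTCA (AP-1), present in 6.75% of promoters, and CTTTGAT (TCF/LEF), in 3.21%, occurred before none of the 9 starts. The motifs do not overlap, and a match is a description of the letters.

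Hbegf encodes heparin-binding EGF-like growth factor, a ligand of EGFR. Like Areg, it was highest in GOBLET-PRE in every library, at 125 and 236 CPM in WT, against 106 and 140 CPM in APC-KO. EC followed in WT at 117 and 108 CPM, clear of ENTERO-PRO at 84.3 and 69.5 CPM. In APC-KO, EC stood at 25.6 CPM (7 UMIs in 45 cells) and 92.2 CPM, so that APC-KO replicate 1 was low. PANETH was lowest in WT, at 8.81 and 6.76 CPM, and EEC-PRE next, at 12.1 and 12.6 CPM. Defensins and the listed mucus and granule genes took 57.6% and 56.2% of UMIs in WT PANETH and 40.6% and 45.0% in WT GOBLET. With those genes left out of the total, PANETH stood at 18.1 CPM and EEC-PRE, at 12.5 CPM, was lowest.

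The Areg and Hbegf patterns were the most alike among pairs of members, with Ereg left out (Pearson r = 0.83 of log2(CPM + 1) over the 12 types in WT, which share libraries and depth). The 2 genes were also found in the same GOBLET-PRE cells. Of 1263 thinned cells in WT replicate 1, 79 had a UMI of both, where the product of the 2 shares gives 34.0 cells. In WT replicate 2 the numbers were 158 of 1241 cells and 94.7. In APC-KO they were 13 of 182 cells and 5.56, and 73 of 1066 cells and 30.2. Areg and Errfi1 shared cells as well: 59, 109, 7 and 35 cells had both, against products of 29.4, 72.4, 4.59 and 18.9. All 8 counts lay above their product. For Areg and Errfi1 in APC-KO replicate 1, with 7 cells, the ratio was 1.52 with a 95% Poisson interval of 0.613 to 3.14. GOBLET-PRE cells differ among themselves in many genes, and the part of that in these counts was not tested.

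Tgfa encodes transforming growth factor alpha, a further EGFR ligand, and was sparse. It was highest in WT GOBLET, at 18.5 and 18.4 CPM (15 and 26 UMIs), against 14.7 and 12.2 CPM in APC-KO GOBLET. NON-EC (6.63 and 18.9 CPM) and GOBLET-PRE (10.7 and 13.2 CPM) came next in WT and were not clear of their neighbours. Btc, a ligand outside the 10 that encodes betacellulin, was also highest in GOBLET, at 59.2 and 58.0 CPM in WT, against 97.9 and 47.9 CPM in APC-KO. In WT its next type, GOBLET-PRE, stood at 13.7 and 19.2 CPM.

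Egf was sparser still, with 87, 63, 10 and 102 UMIs over all kept cells. PANETH-PRE was highest in WT, at 26.0 CPM (16 UMIs) and 9.15 CPM (4 UMIs), and stood at 9.33 CPM (1 UMI) and 9.19 CPM (25 UMIs) in APC-KO. PANETH, the other type with high Paneth markers, held 2.71 and 5.80 CPM in the WT libraries (4 and 12 UMIs). In those of APC-KO it held 5.53 and 10.8 CPM (1 and 20 UMIs). Defensins and the listed mucus and granule genes took 57.6% and 56.2% of PANETH UMIs in WT, against 51.1% and 41.5% in APC-KO. With defensins and the listed mucus and granule genes left out of the total, PANETH had a WT mean of 9.82 CPM (SD 4.85). PANETH-PRE then stood at 21.0 CPM (SD 14.6), a wide spread between the WT libraries. The genes with a WT pattern most like that of Egf were Rnase1, the Paneth cell protease gene Mmp7 and Bhlha15 (r = 0.89 for each, 12 types).

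Ereg, which encodes epiregulin and lies on the same chromosome as Areg, at chr5:91074622-91093646 on the plus strand, was close to absent from kept cells. It had 5, 3, 0 and 3 UMIs in all, or 0.203, 0.143, 0 and 0.110 CPM, and the 0 of APC-KO replicate 1 allows a level of up to 0.997 CPM. No type had more than 2 of its UMIs in a library. Ereg did not pass the filter on low counts in the fit over all kept cells.

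**Figure D1:**
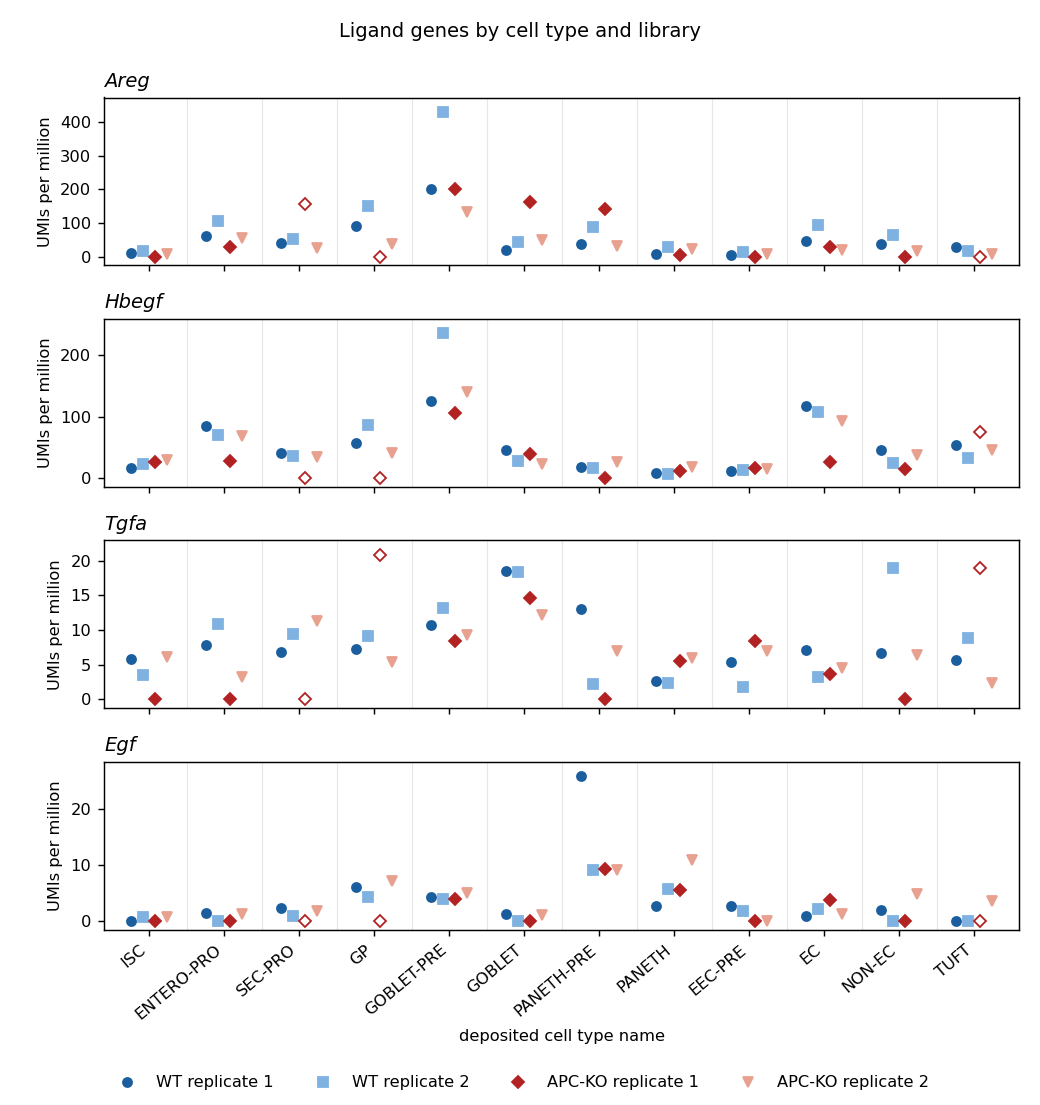
CPM of 4 ligand genes (vertical axes, linear) in each deposited cell type (horizontal axis), 1 point per library, with open points for types under 10 cells. Areg and Hbegf were highest in GOBLET-PRE in all 4 libraries (133 to 430 and 106 to 236 CPM). In types with at least 10 cells, Tgfa and Egf reached at most 18.9 and 26.0 CPM. The open Tgfa point at 20.9 CPM is 1 UMI in 7 GP cells of APC-KO replicate 1.

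Egfr encodes the receptor of all 5 ligands above. It was highest in EC in WT, at 70.3 and 64.1 CPM, and stood there at 43.9 and 92.2 CPM in APC-KO. EC gave 22.1% and 20.4% of the Egfr UMIs of the WT libraries from 5.08% and 4.46% of all their UMIs. GOBLET (24.7 and 29.0 CPM) and ISC (23.6 and 29.1 CPM) came next in WT and overlapped, and both were clear of the 9 types below. With defensins and the listed mucus and granule genes left out of the total, the WT mean was 47.1 CPM (SD 7.95) in GOBLET. On that scale ISC stood at 26.6 CPM (SD 3.85) and EC, still highest, at 67.8 CPM. TUFT was lowest in WT, at 2.28 and 1.77 CPM (2 and 1 UMIs). In APC-KO replicate 2, TUFT stood at 11.6 CPM (10 UMIs), above PANETH at 7.59 CPM. In thinned WT cells an Egfr UMI was seen in 14.4% (interval 11.0 to 18.6) and 11.6% (7.98 to 16.2) of EC cells, against 0.469% and 0% of 119 cells (interval up to 3.05) in TUFT; before thinning the shares were 18.6% and 18.1% against 0.866% and 0.813%. Median depth was 3066 and 3374 UMIs per cell in EC and 3879 and 4643 in TUFT. In APC-KO replicate 1, GOBLET (73.5 CPM, 15 UMIs) stood above EC (43.9 CPM, 12 UMIs).

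Erbb2 was highest in ENTERO-PRO (35.6 and 54.3 CPM) and NON-EC (35.1 and 39.3 CPM) in WT, which overlapped. NON-EC carries markers of enteroendocrine cells other than those of EC, such as Cck and Sct. ISC followed at 24.2 and 26.2 CPM, clear of NON-EC. In APC-KO, ENTERO-PRO stood at 14.1 CPM (1 UMI) and 28.7 CPM. PANETH, at 3.39 and 5.80 CPM, was lowest in WT, and with the secreted products left out of the total TUFT was lowest (7.9 CPM) and PANETH stood at 10.6 CPM.

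Erbb3 was found in every type of every library. EC was highest in WT, at 145 and 149 CPM, clear of NON-EC at 99.5 and 121 CPM. TUFT, the type with the least Egfr in WT, had 92.2 and 91.9 CPM of Erbb3 in the WT libraries. GP, GOBLET-PRE, ENTERO-PRO, SEC-PRO and ISC ran from 83.6 down to 64.9 CPM in WT means. PANETH was lowest at 21.7 and 27.5 CPM, or 57.0 CPM with the secreted products left out, when EEC-PRE was lowest at 42.1 CPM. The receptor gene Erbb4, outside the 10, had 0 UMIs in all 4 libraries.

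Errfi1 was highest in EC in every library, at 103.8 and 133.6 CPM in WT, against 154 and 80.8 CPM in APC-KO. GOBLET-PRE came next in WT at 68.4 and 118 CPM, overlapping EC, and NON-EC at 66.3 and 87.2 CPM. ISC was lowest in WT, at 16.0 and 21.3 CPM, although it ranked the third for Egfr. Among thinned EC cells of WT, a UMI of both Egfr and Errfi1 was seen in 9 of 353 and 7 of 258, close to the products of the shares (8.09 and 6.40 cells).

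Lrig1 was highest in WT in PANETH-PRE (40.6 and 57.2 CPM), EC (35.1 and 50.2), SEC-PRO (42.8 and 40.9) and ISC (35.3 and 43.3), which overlapped one another. GP came next, with a WT mean of 37.1 CPM, and overlapped ISC. GOBLET was lowest in both WT libraries (4.93 and 0.708 CPM, 4 and 1 UMIs) and in APC-KO replicate 2 (3.06 CPM, 3 UMIs). In APC-KO replicate 1 it stood at 4.90 CPM (1 UMI), above ISC, ENTERO-PRO, GP and NON-EC, which had 0 Lrig1 UMIs in 7 to 13 cells each. GOBLET-PRE stood at 19.5 and 22.3 CPM in WT. Leaving the secreted products out of the total put GOBLET at 4.8 CPM, still the lowest. It moved the WT mean of PANETH from 19.6 to 45.4 CPM, next below PANETH-PRE at 57.8 CPM. The WT pattern of Lrig1 ran most against that of Tgfa among pairs of members (r = -0.55, 12 types).

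**Figure D2:**
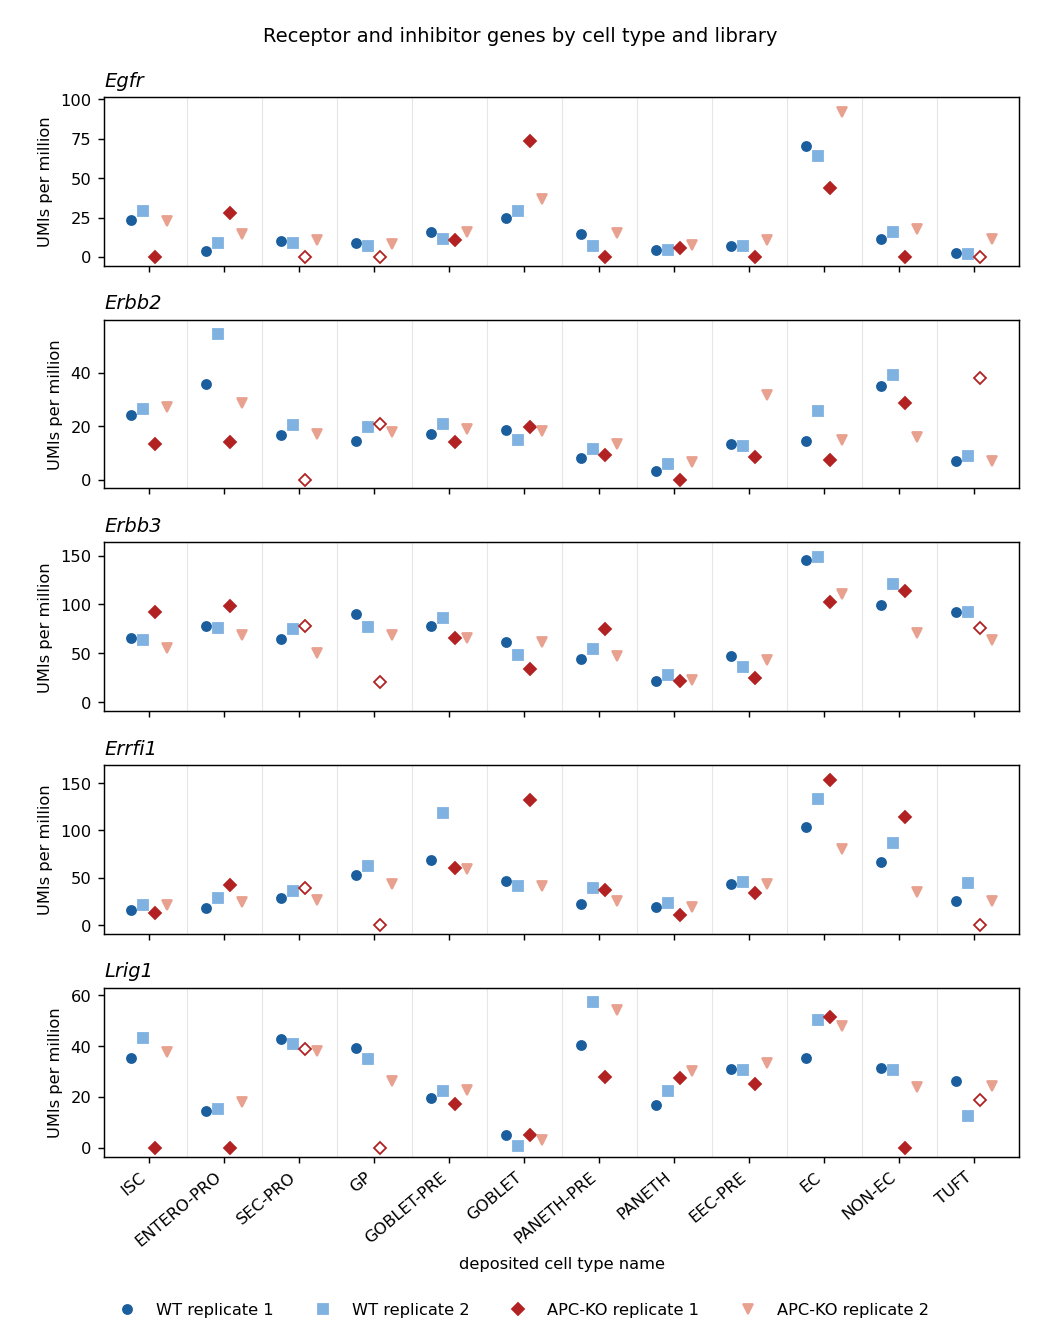
CPM of 3 receptor genes and 2 inhibitor genes (vertical axes, linear) in each deposited cell type, 1 point per library, with open points for types under 10 cells. Egfr, Erbb3 and Errfi1 had their highest WT levels in EC, and Lrig1 stayed under 5 CPM in GOBLET in all 4 libraries.

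As possible senders and receivers, the types with the highest WT levels were these: Areg and Hbegf in GOBLET-PRE, Tgfa and Btc in GOBLET, Egf in PANETH-PRE, and Egfr in EC, then GOBLET and ISC. EC was high for a ligand gene (Hbegf), a receptor gene (Egfr) and an inhibitor gene (Errfi1) at once. Protein, release and binding were not measured. Genes whose WT pattern over the 12 types was most like that of a member were Preb and Syvn1 for Areg (r = 0.90 and 0.89), Etv3, Wdr1 and Nfkbiz for Hbegf (0.90, 0.89 and 0.87), and Shisa2, Il18r1 and Kcnj2 for Egfr (0.90, 0.79 and 0.77), out of 9008 genes compared over types that share libraries and depth. For Errfi1 they were Zcchc6, Camk2n1 and Sdcbp (0.92, 0.91 and 0.91).

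The other genes of the pathway were read from a list of 51: other ligands, the receptor Erbb4, shedding factors, adaptors, the Ras to ERK kinases, feedback genes and targets, and other inhibitors. Of these, 43 reached a WT mean of 10 CPM in some type. NON-EC had the highest WT mean for 12 of them, EC for 11 and TUFT for 8, while PANETH had the lowest for 25 and GOBLET for 9, the 2 types in which secreted products take most of the total. How often each type ranked highest or lowest among all genes was not counted, so counts here describe the list only. EC was highest for 6 of the 15 feedback and target genes counted. Among them Dusp5, which encodes an ERK phosphatase, stood at 203 and 258 CPM in WT EC, against 263 and 228 CPM in APC-KO EC, and Egr1, an immediate early transcription factor, at 1395 and 1287 CPM and 1768 and 1530 CPM. Of the shedding factors, Adam10 stood at 81.9 and 87.7 CPM in WT GOBLET-PRE and was highest in TUFT (88.8 and 114.9 CPM). Nrg1, Nrg2, Nrg3, Nrg4 and Epgn, further ligand genes, stayed under 10 CPM in every WT type.

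Between genotypes, no member passed the test over all kept cells. Areg ran from 84.1 and 190 CPM in WT to 141 and 43.1 CPM in APC-KO, so that the 2 genotypes overlapped. Hbegf stood at 65.5 and 109 CPM against 71.8 and 54.1 CPM, and Errfi1 at 46.7 and 71.9 against 66.5 and 33.8 CPM, also overlapping. Erbb3 stood at 75.7 and 75.7 CPM in WT and at 65.5 and 57.9 CPM in APC-KO, and Egfr at 16.2 and 14.0 against 16.3 and 18.4 CPM. Tgfa stood at 8.06 and 9.86 against 7.64 and 7.26 CPM. These last 3 genes, Erbb3 and Tgfa lower and Egfr higher in APC-KO, had libraries that did not overlap between genotypes, beside 34.5% of all 13345 genes tested.

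The log2 fold change of APC-KO over WT was -0.47 (SE 0.71) for Areg, -0.38 (0.33) for Hbegf, 0.21 (0.29) for Egf and -0.20 (0.25) for Tgfa. It was 0.30 (0.18) for Egfr, -0.07 (0.21) for Erbb2, -0.20 (0.18) for Erbb3, -0.16 (0.44) for Errfi1 and -0.05 (0.22) for Lrig1. By edgeR's quasi-likelihood test with Benjamini-Hochberg adjustment over all genes, 0 of the 9 members tested passed (adjusted p = 1.00 for each), where 0.0% of all genes passed. At an unadjusted p under 0.05 the count was 0 of 9, beside 3.71% of all genes, and DESeq2 passed 0 as well. The members' median was -0.16, beside 0.01 over all genes. In these sums, a change in the mix of types and a change per cell cannot be told apart: the share of UMIs from GOBLET-PRE, the type highest in Areg and Hbegf, ran from 16.6% to 59.2% over the 2 APC-KO libraries. Without WT replicate 2, the Areg value was 0.25, and without APC-KO replicate 1 it was -1.66.

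**Figure D3:**
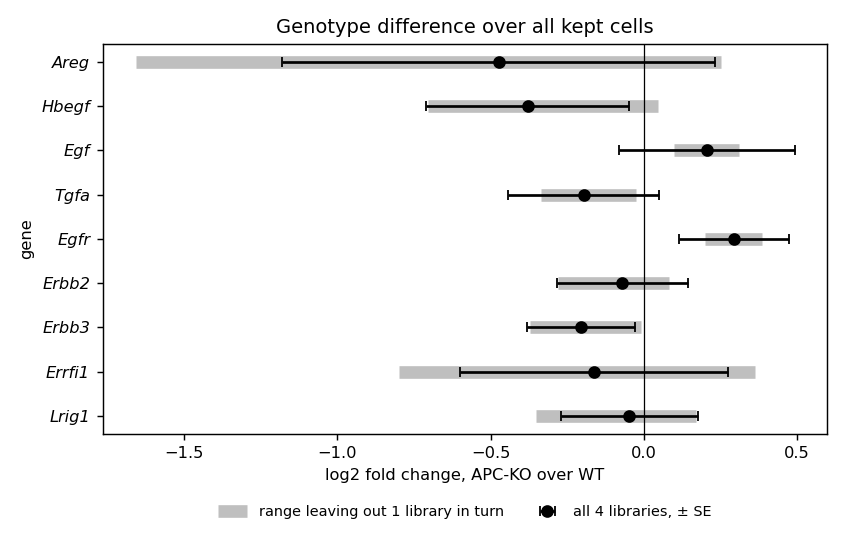
Log2 fold change of APC-KO over WT over all kept cells (horizontal axis) for the 9 members tested (vertical axis), as points with standard errors and, in grey, the range when each of the 4 libraries was left out in turn. For Areg that range, -1.66 to 0.25, spans 0, as it does for Hbegf, Erbb2, Errfi1 and Lrig1.

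In the 9 types with at least 10 cells in each library, no member passed either, by edgeR or by DESeq2. The members tested numbered 7 in EC, 3 in EEC-PRE, 5 in ENTERO-PRO, 7 in GOBLET, 9 in GOBLET-PRE, 8 in ISC, 7 in NON-EC, 5 in PANETH and 4 in PANETH-PRE. Of all genes tested in those types, edgeR passed 0.0%, 0.654%, 0.0788%, 0.0837%, 0.00974%, 3.57%, 0.113%, 1.41% and 1.53%. At an unadjusted p under 0.05 the members were Areg in EC, GOBLET and NON-EC, Hbegf in ISC, Erbb2 in NON-EC, and Erbb3 and Errfi1 in PANETH. In those 5 types 8.39% (EC), 11.2% (GOBLET), 8.9% (NON-EC), 12.2% (ISC) and 12.1% (PANETH) of all genes did so. In 6 of the 9 types fitted, APC-KO replicate 1 held only 11 to 16 cells.

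In EC, Areg stood at 46.3 and 94.0 CPM in WT, against 29.3 and 20.5 CPM in APC-KO, so that both APC-KO libraries lay below both WT libraries. The log2 fold change was -1.51 (SE 0.41, adjusted p = 0.40 by edgeR). Libraries of the 2 genotypes did not overlap for 38.9% of all genes in that type, nor for 39.3% in NON-EC and 44.0% in GOBLET. In barcodes with 1 to 50 UMIs, which hold free RNA, Areg stood at 58.7, 97.9, 58.7 and 34.4 CPM, lowest in APC-KO replicate 2. With that profile subtracted at 5% of the UMIs, the value in EC was -1.60. APC-KO replicate 1 held 8 Areg UMIs in 3 of its 45 EC cells, 5 of them in 1 cell. Without it the value was -1.68, which passed (adjusted p = 0.0025 by edgeR), where 4.31% of all genes passed. Without WT replicate 2 it was -0.97 (adjusted p = 1.00 by edgeR), and without WT replicate 1 or APC-KO replicate 2 it did not pass either. NON-EC gave a like value, with 36.0 and 64.0 CPM in WT against 0 and 15.9 CPM (log2 fold change -1.65, SE 0.52, adjusted p = 0.28 by edgeR). The 0 in APC-KO replicate 1 came from 13 cells and allows a level of up to 42.8 CPM. Without that library the value was -1.48, which passed (adjusted p = 0.020 by edgeR), where 3.92% of all genes passed. It did not pass without any of the other 3: -2.08 without WT replicate 1, -1.31 without WT replicate 2 (adjusted p up to 1.00 by edgeR), and -7.86 without APC-KO replicate 2, where the APC-KO arm is at 0 and the fitted value is no bound.

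In GOBLET, Areg stood at 19.7 and 44.6 CPM in WT, against 162 and 49.9 CPM in APC-KO (16, 63, 33 and 49 UMIs). APC-KO replicate 2 lay just above WT replicate 2, and APC-KO replicate 1 far above both. The log2 fold change was 1.12 (SE 0.47, adjusted p = 0.41 by edgeR), and leaving out APC-KO replicate 1 gave 0.42, while leaving out WT replicate 2 gave 2.02. The 33 UMIs of APC-KO replicate 1 came from 13 of its 28 GOBLET cells, with at most 7 in 1 cell. The median mitochondrial share over all 28 cells was 4.63%, against 2.10% to 2.31% in the other 3 libraries. Mucus and granule products took 37.6% of the UMIs of the 28 cells, against 39.3% to 45.0%. The part of either in the result was not tested.

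The difference between types was tested itself, in a fit of EC, GOBLET and GOBLET-PRE, the 3 types with at least 20 cells in each library, with the library as a block. Areg was the only 1 of 8 members tested that passed (adjusted p = 8.61e-06 by edgeR), where 0.335% of 9854 genes passed. Its log2 fold change in GOBLET exceeded that in EC by 2.53 (SE 0.42, adjusted p = 7.18e-05), and that in GOBLET-PRE fell below that in GOBLET by 1.91 (SE 0.31, adjusted p = 3.23e-05 by edgeR). GOBLET-PRE and EC differed by 0.62 (SE 0.36, adjusted p = 0.96 by edgeR), which did not pass. Relative to the other 2 types of the same library, Areg in GOBLET was thus higher in APC-KO: GOBLET-PRE held 10.1 and 9.64 times the GOBLET level in WT, and 1.25 and 2.67 times in APC-KO. With each library left out in turn, the GOBLET minus EC difference ran from 2.17 to 3.10 and passed each time. Egfr in these types had no such difference that passed, with GOBLET minus EC at 0.12 (SE 0.39).

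**Figure D4:**
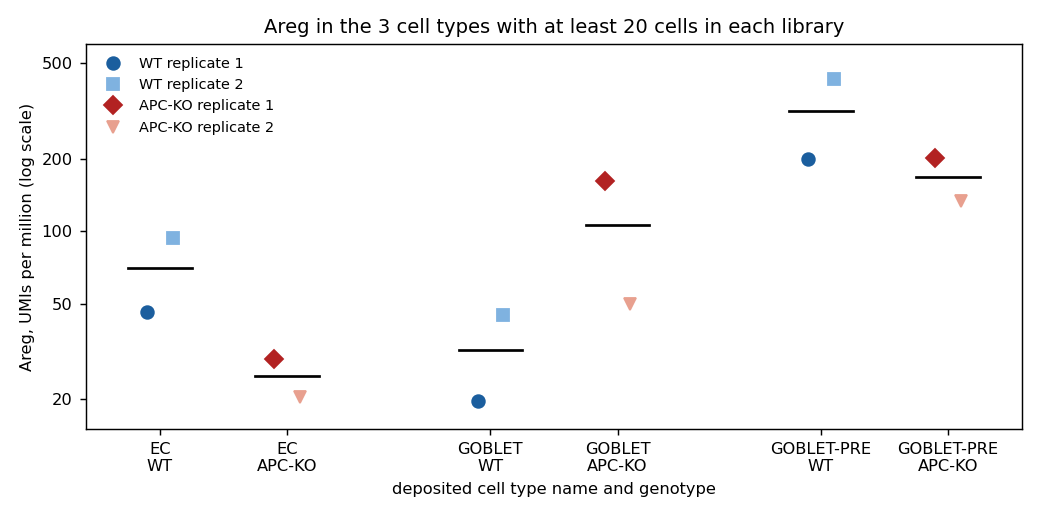
Areg in CPM (vertical axis, log scale) in EC, GOBLET and GOBLET-PRE of each genotype (horizontal axis), 1 point per library with the mean as a line. The APC-KO points lie below the WT points in EC and above them in GOBLET, and 1 APC-KO library (202 CPM) meets WT replicate 1 (200 CPM) in GOBLET-PRE.

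The other values that met the rule for naming did not pass. Hbegf in ISC, where libraries of 38.2% of all genes did not overlap, stood at 16.6 and 23.4 CPM in WT, against 26.4 (2 UMIs) and 29.7 CPM in APC-KO (log2 fold change 0.70, SE 0.28, adjusted p = 0.19 by edgeR). Erbb2 in NON-EC stood at 35.1 and 39.3 CPM against 28.6 (2 UMIs) and 15.9 CPM (-1.002, SE 0.43, adjusted p = 0.50 by edgeR). Erbb3 in PANETH was lower by edgeR's estimate (log2 fold change -0.84, SE 0.32, adjusted p = 0.27 by edgeR), although its plain CPM overlapped, at 21.7 and 27.5 in WT and 22.1 and 22.8 in APC-KO. The scaling factors that edgeR set for the 4 PANETH sums were 0.77, 0.89, 1.04 and 1.42, and on that scale Erbb3 stood at 28.6, 31.4, 21.6 and 16.3 CPM. Without APC-KO replicate 2 these 3 values moved to 0.43 for Hbegf, -0.39 for Erbb2 and -0.47 for Erbb3, and without WT replicate 1 that of Hbegf was also 0.43.

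Of the list of 51 pathway genes, 46 were tested over all kept cells and none passed by edgeR (1 at an unadjusted p under 0.05). Their median log2 fold change was -0.09, beside 0.01 over all genes. For the feedback and target genes it was -0.21, with 13 of 16 below 0, beside 49.1% of all genes. In these sums too, the mix of types and a change per cell cannot be told apart, and the list was not tested as a set. In single types, 2 genes passed, and both were lower in APC-KO. Myc, a growth-promoting transcription factor and target of both Wnt and ERK signalling, passed in ISC, as 1 of 39 tested (1.29% of all genes passed as lower there). It stood at 56.3 and 66.0 CPM in WT and at 0 and 29.4 CPM in APC-KO, where the 0 came from 13 cells and allows up to 39.6 CPM (log2 fold change -1.01, SE 0.24, adjusted p = 0.0022 by edgeR). DESeq2 did not pass it (adjusted p = 1.00), and neither did edgeR without WT replicate 1 (0.96), WT replicate 2 (1.00) or APC-KO replicate 2 (0.18, with the APC-KO arm at 0). Dusp5 passed in PANETH, as 1 of 26 tested (0.821% passed as lower), at 31.8 and 54.6 CPM in WT, against 5.53 (1 UMI) and 22.2 CPM in APC-KO (log2 fold change -1.84, SE 0.35, adjusted p = 0.011 by edgeR). Without WT replicate 1, WT replicate 2 or APC-KO replicate 2 it did not pass (adjusted p = 0.14, 1.00 and 0.25 by edgeR), with a value of -3.26 in the last. The largest value of the list in GOBLET was that of Egr1, at 1.45 (adjusted p = 0.27 by edgeR), and in EC that of Ier3, at -1.83 (adjusted p = 0.33 by edgeR). None of the 43 pathway genes tested for a difference between types passed.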

How the data were processed

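The deposited matrices hold UMI counts per gene and barcode, per the file headers, unfiltered, from 10x 3′ v3.1 libraries. Cell Ranger 3.0.2, STAR and mm10 are named in the submitters' processing notes, and other settings are not stated there. Deposited per-cell tables from the authors list the kept cells with their UMI counts, the mitochondrial share in percent, a library name and a cell type name. The labels do not state how cells were filtered and named, and no doublet caller was run. All 10 symbols and all 51 pathway genes matched a single feature. The members and lists were chosen with earlier results of these data known.

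UMIs were summed per library and type. Sums were tested in R 4.3.3 with edgeR 4.0.16 (TMM scaling, filterByExpr, quasi-likelihood test, Benjamini-Hochberg over all genes, threshold 0.05), over all kept cells, in the 9 types with at least 10 cells per library, and for the interaction in the 3 types with at least 20. A member's fold change is given over all kept cells, and in a type where its unadjusted p was under 0.05 with a mean of at least 20 CPM, or where it passed. Of the pathway list, genes that passed and at most the 2 highest and 2 lowest of at least 20 CPM could be named. Likeness lists give the 3 genes with the highest r, of which 1 is not reported here. Shares used cells thinned to 2000 UMIs. Intervals of shares are 95% Clopper-Pearson, and the level allowed by 0 UMIs is 3 counts over the sum. Gene positions are GENCODE vM21 (GRCm38). DESeq2 1.42.0 and limma 3.58.1 gave alternatives. Fits were tested on simulated data.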

Additional observations from a re-analysis of the deposited data

Results flagged for a closer look

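Areg is listed because the genotype difference itself differed between cell types: over EC, GOBLET and GOBLET-PRE the interaction of genotype with type had an adjusted p of 8.61e-06 by edgeR's quasi-likelihood test. Its log2 fold change of APC-KO over WT was negative in EC (-1.51) and positive in GOBLET (1.12), and neither passed on its own. The comparison rests on 28 GOBLET and 45 EC cells in APC-KO replicate 1. Without that library the GOBLET minus EC difference was 2.17, and it passed.

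Ereg is listed because its UMIs lay mainly outside the kept cells. Barcodes over 500 UMIs that the authors did not keep held 13, 38, 31 and 20 Ereg UMIs in the 2 WT and then the 2 APC-KO libraries, each in replicate order, above the 3 counts that a count of 0 allows, against 5, 3, 0 and 3 in the kept cells. As a level, that was 0.496, 1.38, 0.734 and 0.991 CPM against 0.203, 0.143, 0 and 0.110 CPM. Barcodes with 1 to 50 UMIs held 6, 10, 17 and 5 more, at the highest levels of any group of barcodes (5.42, 7.42, 9.08 and 3.82 CPM). Those with 51 to 500 held 4, 1, 8 and 1 (0.442, 0.169, 0.709 and 0.183 CPM).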

How the results depend on the processing

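The number of members past the threshold was 0 over all kept cells under every alternative run. In single types it became 1 with no filter beyond 1 count in EC, GOBLET-PRE and NON-EC (Areg in each). Leaving out a library gave 0 to 1 in EC and in NON-EC: Areg in both without APC-KO replicate 1, and Hbegf in EC without APC-KO replicate 2. In the interaction fit leaving out a library gave 1 to 2, with Errfi1 joining Areg without APC-KO replicate 2, and Areg passed under every alternative run there. Over all kept cells the sign turned for Areg (range -1.66 to 0.25 leaving out 1 library), Hbegf (-0.70 to 0.05), Erbb2 (-0.28 to 0.082), Errfi1 (-0.80 to 0.36) and Lrig1 (-0.35 to 0.17). It also turned for Lrig1 with thinned cells (0.045) and for Egf with an equal mix of types (-0.13). With a library left out, the lone library of a genotype is assumed to vary like the other pair.

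Same-numbered libraries did not deviate together over all kept cells (r = -0.25) or in types (-0.07 to 0.03), so the numbers are not taken to pair samples. With the replicate block, 1 member passed in GOBLET (Areg, 1.12, adjusted p = 0.046 by edgeR) and 0 in each other type. With the numbers crossed, an alternative chosen after seeing the data, 1 passed in EC.

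The type with the highest WT level ranked the first for Areg, Hbegf and Errfi1 in each library alone. PANETH-PRE ranked 2 for Egf in APC-KO replicate 2 and for Lrig1 in WT replicate 1 and APC-KO replicate 1. GOBLET ranked 2 for Tgfa in WT replicate 2, EC ranked 2 for Egfr and Erbb3 in APC-KO replicate 1, and ENTERO-PRO ranked 3 and 2 for Erbb2 in APC-KO replicates 1 and 2. Weighting cells equally, or leaving secreted products out of the total (chosen after seeing the data), changed no leading type.

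Counts over all genes depended on the libraries and tool. The main count and its range were 0 (0 to 483) over all kept cells, 0 (0 to 405) in EC, 43 (0 to 285) in EEC-PRE, 5 (2 to 392) in ENTERO-PRO, 5 (0 to 79) in GOBLET, 1 (0 to 280) in GOBLET-PRE, 350 (12 to 786) in ISC, 9 (1 to 344) in NON-EC, 98 (0 to 225) in PANETH, 85 (3 to 161) in PANETH-PRE and 33 (8 to 328) for the interaction. The highest counts came without APC-KO replicate 1 in all but GOBLET, GOBLET-PRE and PANETH-PRE (no filter) and the interaction (without APC-KO replicate 2). The cause was not tested. Sums of 11 to 16 cells in APC-KO replicate 1 limit 6 of the 9 types.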
